A study of Ovis aries with 12 samples.

Results

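In RNA sequencing of sheep reproductive tissue, 212 of 24616 gene identifiers had 1 or 2 ovarian libraries at 8 times the ovarian median or more. Each had a highest level of at least 10 CPM (the count per 1000000 counts of the library) over the 6 ovarian libraries, and that level was at least 8 times the median of those 6. In the 6 endometrial libraries the same identifiers either stayed under 8 times their median or never reached 10 CPM. The ovarian condition alone was met by 221 identifiers, of which 7 were also extreme in endometrium and 2 were left out by name. The same rule with the tissues exchanged found 71 identifiers. The members were thus chosen by their CPM in the ovarian libraries, and those values are given as a description. Counts of edgeR calls that use the ovarian values are printed beside the share of all genes called, and nothing is read from them.

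The libraries fell into 4 groups of 3 by their titles. They were Co-L and Co-H, from ovarian tissue of low and high fertility, and T-L and T-H, from endometrium of low and high fertility. The labels call 5 of the Co libraries ovary and the library Co-H 3 corpus luteum, while the file headers name all 6 as CL, and they do not say what Co and T stand for. The series describes its samples as pooled, with controls and treatments, but gives neither a treatment nor an age or breed. All 12 libraries were made from total RNA of flash-frozen tissue.

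The ovary is a mosaic of follicles, stroma, vessels and corpora lutea. A follicle holds an oocyte, granulosa cells and theca cells, and after ovulation its remnant becomes the corpus luteum, a temporary gland of steroid-producing luteal cells, endothelium and immune cells that makes progesterone and regresses if no pregnancy follows. The endometrium is the lining of the uterus, with luminal and glandular epithelium over a stroma, and it responds to ovarian steroids. In bulk tissue such as this, fewer cells of a type and less RNA per cell cannot be told apart. The identifiers are those of cattle genes and 0 of them could be paired with a symbol here, so no function is given for a member, and the labelled tissues were not checked against their marker genes.

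Total counts ran from 12665680 to 17852552 in the Co libraries and from 9627378 to 13934369 in the T libraries. At these depths 10 CPM rests on well over the 3 counts taken as the floor, which corresponds to between 0.168 and 0.312 CPM in a single library. The low side of a ratio is thin, however. Of the 149 members that were highest in the library Co-L 3, 63 had a median of at most 3 counts over the Co libraries.

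One library, Co-L 3, carried most of the set. It was the highest Co library for 149 of the 212 members, or 70.3%, against 19.5% of the 10082 identifiers that reached 10 CPM in any Co library. Co-H 3 was highest for 34 members (16%, against 26.3%) and Co-H 2 for 15 (7.08%, against 22%). Co-L 1 and Co-L 2 were highest for 6 members each (2.83%, against 17.1% and 3.73%) and Co-H 1 for 2 (0.943%, against 11.3%). A single library stood at 8 times the median or more in 160 members, and 2 libraries did so in 52. The highest library was at least 8 times the second in 127 members, which 132 (1.31%) of the 10082 identifiers showed. Every such identifier meets the Co part of the rule, so nothing is read from that count.

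**Figure D1:**
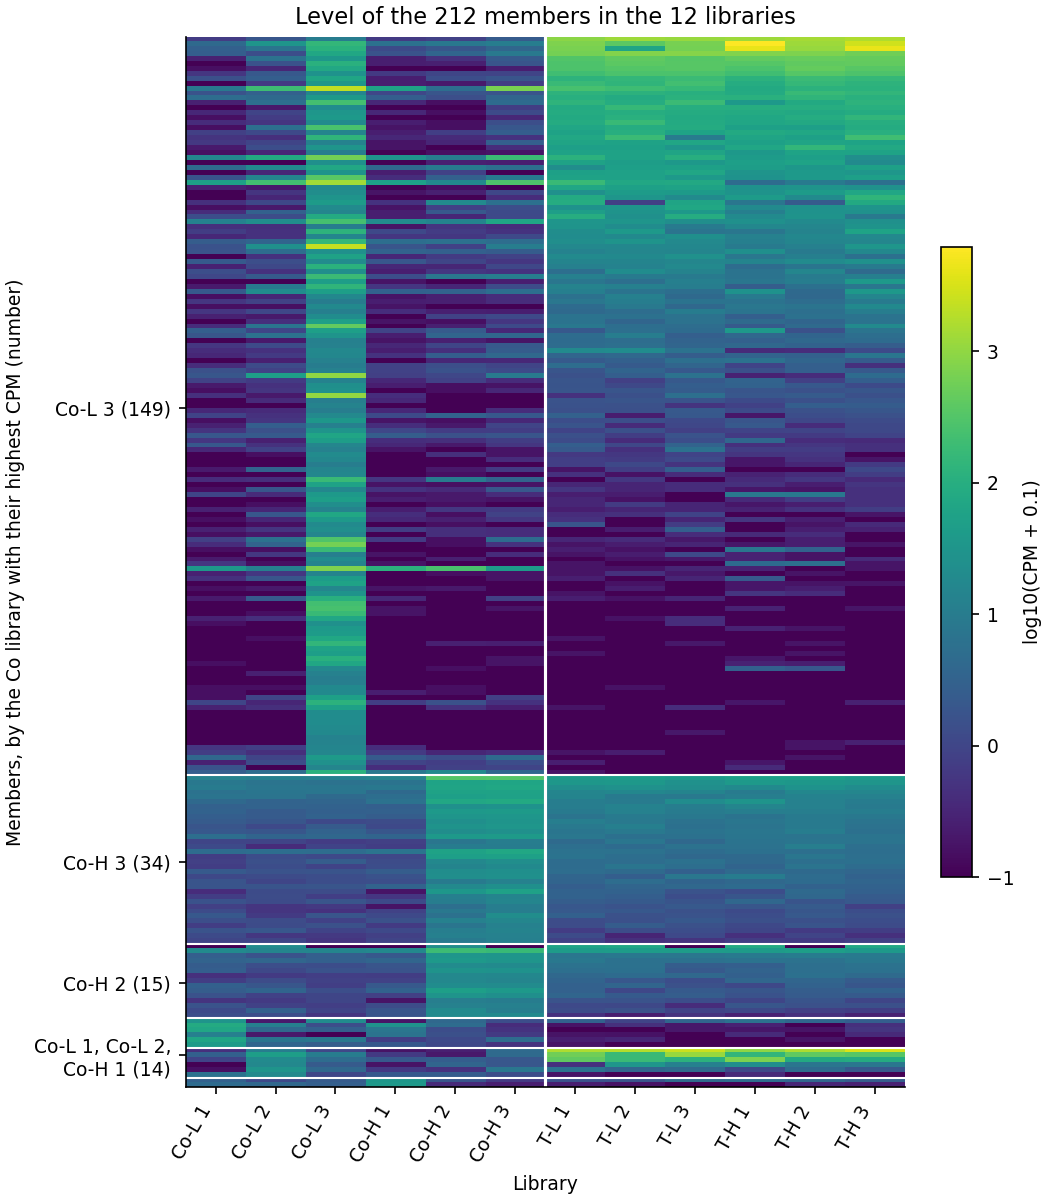
Level of each of the 212 members (rows) in each of the 12 libraries (columns), as log10(CPM + 0.1) on a colour scale, with rows ordered by the Co library in which the member was highest. The large block is bright in Co-L 3 alone among the Co libraries, the second block is bright in Co-H 2 and Co-H 3 together, and the T columns differ from row to row.

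The members highest in Co-L 3 ranged widely in abundance. Their level there had a median of 29.1 CPM, with 33 members at 100 CPM or more, 5 at 1000 CPM or more and 54 below 20 CPM. The ratio to the Co median had a median of 129, with 80 members at 100 or more and 22 under 16. In 122 of the 149 the library stood at least 8 times above the next one. For 18 members all 5 other Co libraries held 0 counts.

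Together these 149 members took 1.79% of all counts in Co-L 3, with a Wilson 95% interval of 1.786% to 1.80% that covers counting error only. They took 0.142% in Co-H 3, 0.0849% in Co-L 2, 0.0457% in Co-H 2, 0.0340% in Co-H 1 and 0.0202% in Co-L 1. Co-L 3 was thus alone at the top, while Co-H 3 and Co-L 2 stood above the remaining 3 Co libraries. The Co-L group mean was 0.633% ± 1.01 (SD, n = 3) and the Co-H mean 0.0740% ± 0.0595 (SD, n = 3), so a group mean describes none of the libraries in it. The 5 members at 1000 CPM or more held 44.5% of the set's counts in Co-L 3.

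**Figure D2:**
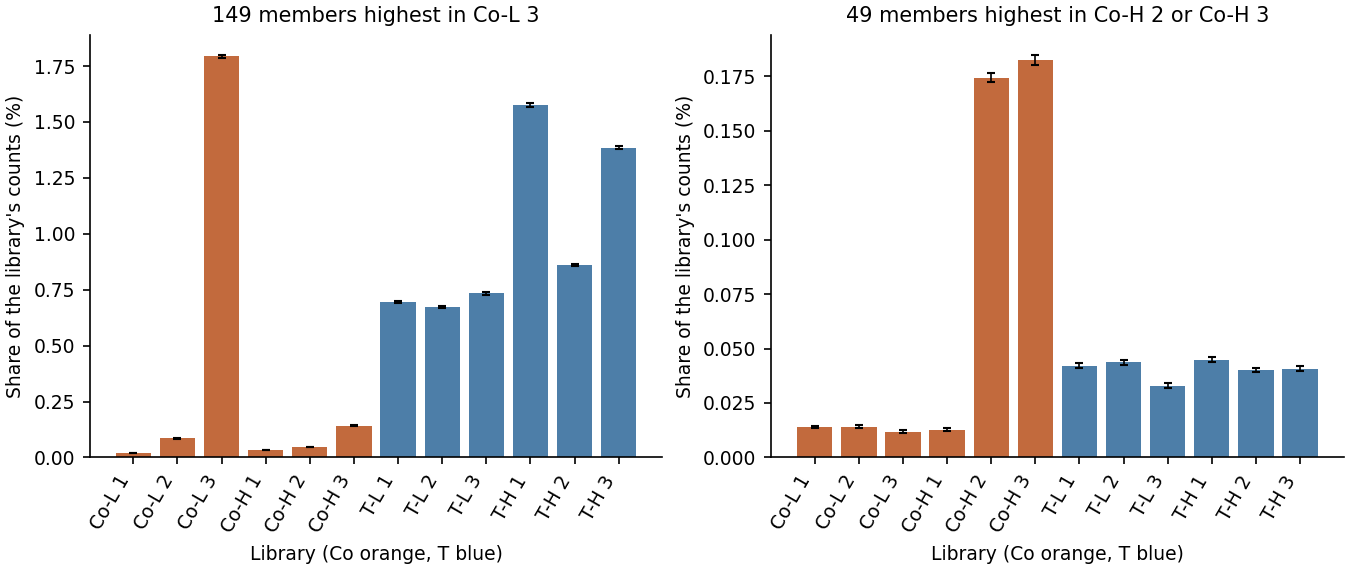
Share of each library's counts, in percent, taken by the 149 members highest in Co-L 3 (left) and by the 49 members highest in Co-H 2 or Co-H 3 (right, on a smaller scale). Each bar is 1 library, orange for Co and blue for T, with its Wilson 95% interval. The first set reached 1.79% in Co-L 3 and 0.673% to 1.58% in T, and the second reached 0.174% and 0.182% in Co-H 2 and Co-H 3.

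The most abundant member, ENSBTAG00000019798, measured 1.49, 25.2 and 2387 CPM in Co-L 1, 2 and 3 and 1.74, 0.728 and 10.5 CPM in Co-H 1, 2 and 3. The T-L libraries held 17.4, 16.4 and 16.3 CPM and the T-H libraries 9.21, 12.4 and 33.6 CPM. One library of 12 was therefore far above the rest, and the T libraries lay above the 3 lowest Co libraries and far below Co-L 3.

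ENSBTAG00000005353, the second most abundant, was spread more evenly. Its levels were 8.60, 202 and 2208 CPM in Co-L and 57.2, 5.27 and 665 CPM in Co-H, and 247, 203, 166, 81.4, 118 and 113 CPM in the T libraries. Co-L 3 was the highest, Co-H 3 the second and Co-L 2 the third, and all 6 T libraries lay below Co-H 3 and above the 3 lowest Co libraries.

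ENSBTAG00000015441 had the same order, at 53.0, 224 and 1329 CPM in Co-L and 49.8, 18.8 and 284 CPM in Co-H. In T it measured 175, 74.5 and 78.4 CPM in T-L and 4.93, 9.44 and 5.59 CPM in T-H, and these 2 groups did not overlap. The edgeR estimate for T-H against T-L was -3.98 ± 1.20 (log2, SE), which did not pass the test over all genes (adjusted p = 0.983).

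The other members over 1000 CPM, which are named because of their level, were far lower elsewhere. ENSBTAG00000033545 reached 1041 CPM in Co-L 3, with at most 0.358 CPM in another Co library and 0.378 to 5.61 CPM in T. ENSBTAG00000046375 reached 1012 CPM, with 51.9 CPM in Co-L 2, 9.53 CPM in Co-H 3 and at most 6.23 CPM in T. Again Co-L 2 and Co-H 3 came next in the second of these.

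The largest ratios belonged to members with almost no counts outside Co-L 3. ENSBTAG00000013039 had 2964 counts in Co-L 3, or 222 CPM, and 0 in each of the 11 other libraries. Its Co median was 0. Taking 3 counts over the total of all 6 Co libraries, Co-L 3 included, in place of that median, the ratio was 6733. ENSBTAG00000030711 had 3430 counts, or 256 CPM, in Co-L 3 and a single count in each of Co-H 1 and Co-H 3.

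Apart from the 18 members with no counts in another Co library, the second highest was Co-L 2 in 48, Co-H 3 in 37, Co-H 2 in 20, Co-L 1 in 17 and Co-H 1 in 9. Co-L 2 or Co-H 3 came second in 85 of 149 (57.0%), against 41.3% of the 1815 other identifiers that were highest in Co-L 3. The full order Co-L 3, Co-L 2, Co-H 3 held in 28 members (18.8%, against 4.52%), and Co-L 3, Co-H 3, Co-L 2 in 21 (14.1%, against 5.29%). Co-L 2 and Co-H 3 carry opposite fertility labels.

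A second set of 49 members was highest in Co-H 2 or Co-H 3, and in 48 of them these 2 libraries were the top pair. Their higher level had a median of 24.0 CPM and ran from 10.2 to 344 CPM. The ratios were modest beside those of Co-L 3: the median was 11.8 and 39 were under 16. In all 48 members both libraries were at least 3 times each of the 4 other Co libraries, which held for 2.08% of the 10082 identifiers. The rule, which asks for 8 times the median of 6, selects for such a gap.

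Within the pair the levels were close. Co-H 2 over Co-H 3 had a median of 0.931, and 43 of the 48 lay within 1.5-fold, as did 92.8% of the 10082 identifiers, so the closeness was general to these libraries. The 4 other Co libraries were likewise close to each other, their highest over their lowest having a median of 1.91. Relative to the mean of those 4, the medians were 12.0 for Co-H 2, 14.2 for Co-H 3, and 1.12, 0.962, 0.910 and 0.973 in Co-L 1, Co-L 2, Co-L 3 and Co-H 1. In these members Co-H 1 was thus near the 3 Co-L libraries. With the pair on top, another high library would raise the median and fail the rule, so nothing is read from the low place of Co-H 1.

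The member ENSBTAG00000011689 showed the pattern of the set plainly. Its levels were 13.7, 11.4 and 12.0 CPM in Co-L, 13.7 CPM in Co-H 1, and 330 and 344 CPM in Co-H 2 and Co-H 3. The T libraries held between 39.3 and 48.7 CPM, above the 4 low Co libraries and far below the pair.

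ENSBTAG00000019730 gave 19.5, 15.1 and 15.3 CPM in Co-L and 17.4, 195 and 170 CPM in Co-H, with 39.4 to 49.0 CPM in T. ENSBTAG00000002321 was lower but steeper, at 0.657, 1.24 and 1.05 CPM in Co-L and 0.947, 50.9 and 53.3 CPM in Co-H, with 4.05 to 7.58 CPM in T. In both, the T libraries again fell between the low and the high Co libraries.

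ENSBTAG00000003514 measured 0.657, 1.24 and 0.823 CPM in Co-L and 1.26, 14.7 and 19.1 CPM in Co-H, with 3.37 to 7.25 CPM in T. ENSBTAG00000010509 stood at 0.358, 0.562 and 0.673 CPM in Co-L and 0.632, 17.0 and 16.8 CPM in Co-H, with 2.83 to 5.73 CPM in T. ENSBTAG00000013163 had 0.299, 1.12 and 1.20 CPM in Co-L and 0.0790, 34.7 and 54.6 CPM in Co-H, with 1.28 to 4.18 CPM in T. Co-H 1 was the lowest library in the last of these and near the Co-L libraries in the others.

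ENSBTAG00000006999 had a different place in T. It measured 2.51, 3.43 and 1.35 CPM in Co-L, 3.08, 49.7 and 37.6 CPM in Co-H, and 0.933 to 3.15 CPM in T, so that T overlapped the low Co libraries.

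**Figure D3:**
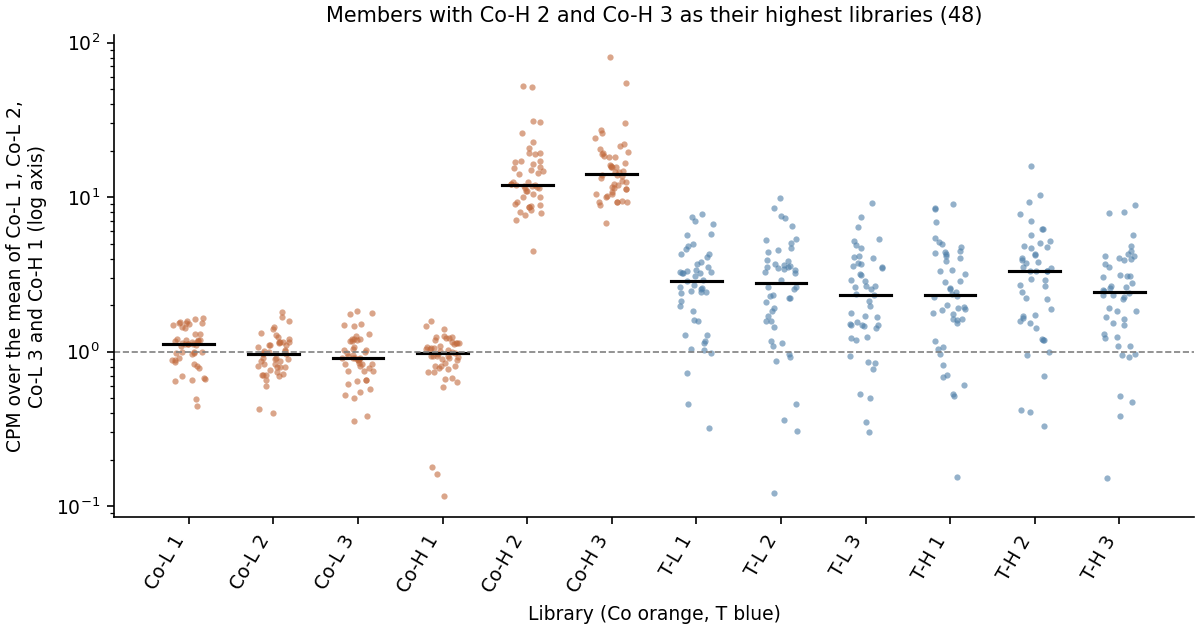
Level of each of the 48 members with Co-H 2 and Co-H 3 as their top pair, relative to the mean of the other 4 Co libraries (log axis), in each library (Co orange, T blue). Each point is 1 member and each black line a median, from CPM without scaling. The medians are 12.0 for Co-H 2, 14.2 for Co-H 3 and 2.32 to 3.31 for the T libraries, and the dashed line marks a ratio of 1.

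The rule bounded how far the T levels of this second set could spread between libraries. All 6 T libraries lay between the 4 low Co libraries and the pair in 31 of 48 members, and all 6 were below the pair in 47. Of the 10082 identifiers, 46.7% had all 6 T libraries below the highest Co library. No share over all identifiers was taken for the place between. The rule chose these members for a high level in few Co libraries and low values in most, so nothing is read from these counts. Relative to the mean of the 4 low Co libraries the T medians were 2.32 to 3.31, and the highest over the lowest T library had a median of 1.97. These ratios rest on CPM without scaling. The TMM scaling factors in edgeR were 0.745 to 0.864 in those 4 Co libraries and 1.03 to 1.23 in T. For Co-H 2 and Co-H 3 they were 0.977 and 0.9996. Scaling by them would lower both T and the pair relative to the 4 low Co libraries. The set took 0.174% of counts in Co-H 2 and 0.182% in Co-H 3, 0.0118% to 0.0142% in the other Co libraries, and 0.0407% ± 0.00421 (SD, n = 6) in T.

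The exception in this set was ENSBTAG00000021565, which was present or absent without intermediate levels. It had 371 counts in Co-L 2 and 393 in Co-H 2, or 20.8 and 22.0 CPM, and 0 in the other 4 Co libraries. In endometrium T-L 1 had 803 counts, T-L 2 had 939, T-H 1 had 887 and T-H 3 had 833, while T-L 3 and T-H 2 had 0, which allows up to 0.312 and 0.232 CPM there. Its presence crossed tissue and fertility labels. It was the only 1 of 24616 identifiers with 0 counts in at least 3 libraries, 10 CPM in at least 2 Co libraries and 20 CPM in at least 2 T libraries, a description written after its values were seen.

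The remaining 14 members were carried by Co-L 1, Co-L 2 or Co-H 1. In Co-L 1, ENSBTAG00000009938 reached 84.9 CPM, against 11.4 and 1.35 CPM in the other Co-L libraries and 27.3, 4.76 and 0.315 CPM in Co-H, with at most 0.361 CPM in T. ENSBTAG00000011869 reached 70.0 CPM there and ENSBTAG00000045896 42.3 CPM, both with under 8 CPM in every other Co library and under 1 CPM in T. Of the 6 members of Co-L 1, 5 had a T median below 1 CPM.

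The members of Co-L 2 included identifiers that were abundant in endometrium. ENSBTAG00000004796 had 10.6 CPM in Co-L 2, 4.49 CPM in Co-H 3 and under 1 CPM in the other Co libraries, and 965 to 3384 CPM in T. ENSBTAG00000010433 had 49.0 CPM in Co-L 2, 10.2 CPM in Co-L 3 and at most 4.49 CPM elsewhere in Co, and 146 to 1136 CPM in T. All 6 T libraries were above Co-L 2 in 3 of its 6 members. ENSBTAG00000017071 was of another kind, at 30.1 CPM in Co-L 2 and 1.00 to 6.58 CPM in T.

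Co-H 1 carried ENSBTAG00000002786, at 33.7 CPM against at most 2.99 CPM in another Co library and 1.51 to 5.02 CPM in T. It also carried ENSBTAG00000012838, at 37.4 CPM against at most 4.60 CPM, with at most 0.232 CPM in T. This last member was lower in Co-H 2 and Co-H 3, at 0.280 and 0.157 CPM, than in any Co-L library.

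Near the limits of the rule, the members just inside were ENSBTAG00000021359 and ENSBTAG00000023026, at 8.002 and 8.003 times their Co medians. Just outside were ENSBTAG00000017094 at 7.89 times and ENSBTAG00000007659 at 7.83 times.

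Members that shared a carrier moved together over the 6 Co libraries, which follows from how they were chosen. Between members of Co-L 3, Pearson's r of log2 CPM had a median of 0.893 over 4950 pairs of 100 identifiers, and between members of Co-H 2 and Co-H 3 a median of 0.966 over 1176 pairs of 49. One of each gave a median of -0.278, and all genes 0.005. The points of each r are the same 6 libraries, so these are descriptions of those libraries.

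Without their carriers the members of both sets were far less alike. With Co-L 3 set aside, the median r between its members over the 5 other Co libraries was 0.288, and 14.4% of pairs exceeded 0.8, against 10.3% of pairs of all genes. With Co-H 2 and Co-H 3 set aside, the median r between their members over the 4 other Co libraries was 0.0222, and 9.27% of pairs exceeded 0.8, against 13.4% of pairs of all genes. Over the 6 T libraries, whose levels chose the members only through the bound on their spread, the medians were 0.00221 for the members of Co-L 3 and 0.121 for those of Co-H 2 and Co-H 3. The share of T pairs above 0.8 was 3.64% and 4.17%, against 3.51% of pairs of all genes.

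**Figure D4:**
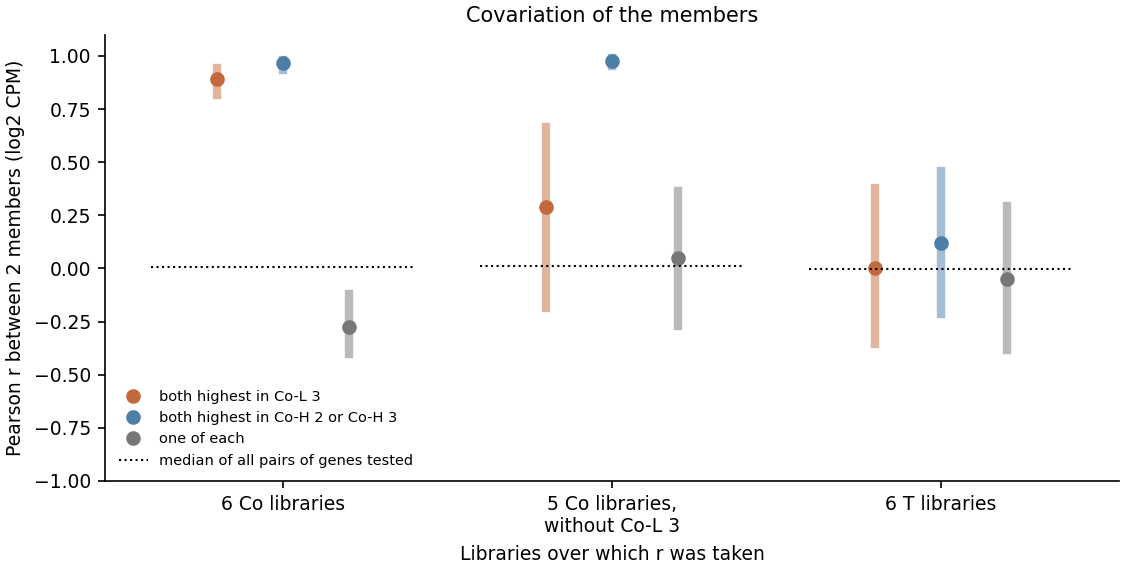
Pearson's r between pairs of members over the 6 Co libraries, over the 5 Co libraries other than Co-L 3, and over the 6 T libraries, shown as the median (point) and the range from the lower to the upper quartile (bar) for pairs within each set and for pairs of one of each. Dotted lines are the medians of all pairs of genes. In the middle group only Co-L 3 is left out, so that the carriers of the other set remain in. The medians of 0.893 and 0.966 over the Co libraries stand beside 0.00221 and 0.121 over the T libraries.

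The Co patterns were not limited to members. The identifier most like ENSBTAG00000019798 over the 6 Co libraries was ENSBTAG00000011473 (r = 0.998), and 200 genes had an r above 0.95 with it, of which 32 were members. ENSBTAG00000011473 itself held 1045 CPM in Co-L 3 and 259 to 430 CPM in the other Co libraries, a far smaller ratio between the libraries. There Co-H 3 stood above Co-L 2, the reverse of ENSBTAG00000019798. For ENSBTAG00000011689, the most like was ENSBTAG00000020617 (r = 0.999), at 105 and 110 CPM in Co-H 2 and Co-H 3 and 44.8 to 51.6 CPM in the others. It had 727 genes above 0.95, of which 39 were members.

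In endometrium the members of Co-L 3 divided by level. The T median was below 1 CPM in 71 of the 149, between 1 and 10 CPM in 30, and 10 CPM or more in 48, of which 14 were at 100 CPM or more. Over all 212 members 83 had a T median below 1 CPM, against 2.08% of the 10082 identifiers. Between 1 and 10 CPM there were 67, against 9.27%, and at 10 CPM or more 62, against 88.6%. The rule admits identifiers that never reach 10 CPM in T whatever their spread there. It thus favours low T levels, and nothing is read from these shares. The 71 low ones included 14 with 0 counts in every T library.

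The 3 classes also differed in the Co libraries. Members with a T median below 1 CPM had a median of 25.7 CPM in Co-L 3 and a median ratio to the Co median of 325. Those between 1 and 10 CPM had 18.1 CPM and a ratio of 55.9, and those at 10 CPM or more had 36.0 CPM and a ratio of 48.8. The ratio was thus highest for the 71 members with a T median below 1 CPM, of which 24 had a Co median of 0. The median level of these 71 in Co-L 3 was between those of the other classes.

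**Figure D5:**
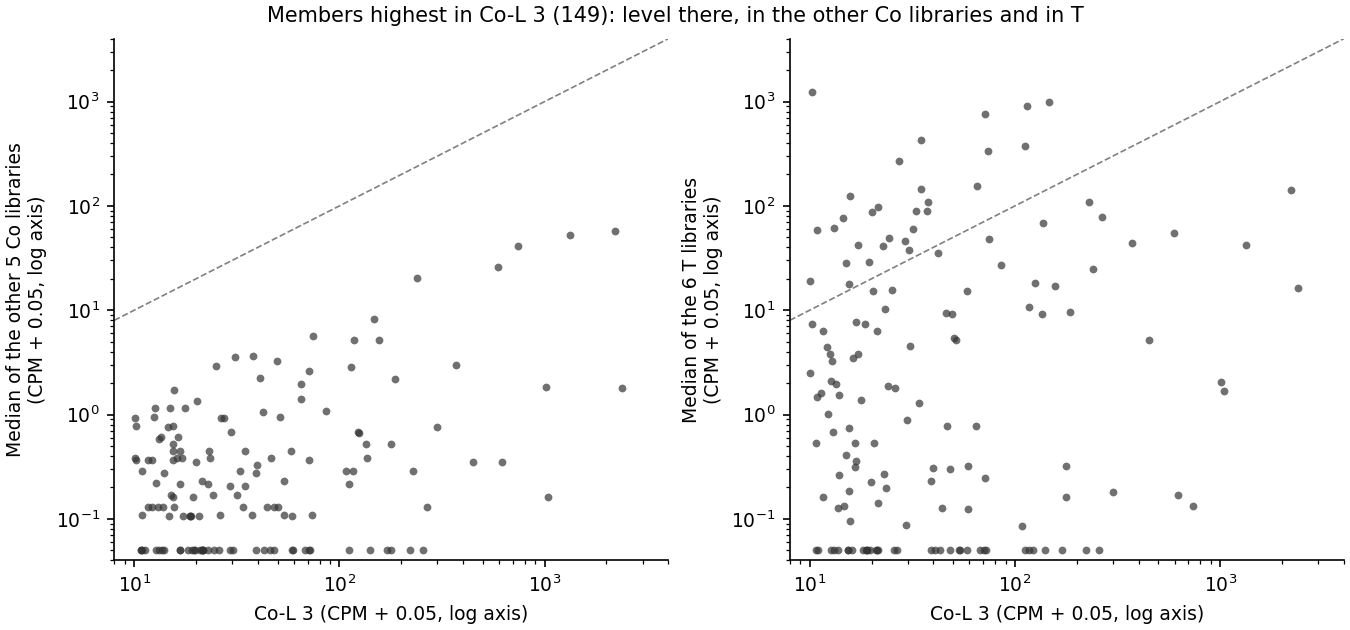
Level in Co-L 3 (x axis) against the median of the other 5 Co libraries (left) and the median of the 6 T libraries (right) for the 149 members highest in Co-L 3, as CPM + 0.05 on log axes. Each point is 1 member and the dashed line marks equal levels. On the right, 71 members lie below 1 CPM in T, 48 lie at 10 CPM or more, and 29 lie above the line.

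The T median was above Co-L 3 in 29 of the 149 members, against 40.2% of the 10082 identifiers for their highest Co library. All 6 T libraries were above it in 23, against 26.1%. All 6 were below it in 113, against 46.7%. In 63 members the lowest T library was above every Co library other than Co-L 3, and 34.8% of the 10082 identifiers had all T libraries above every Co library but the highest. The rule chose the members for low values in most of those Co libraries and favours low T levels, so nothing is read from these counts.

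ENSBTAG00000019125 was one of the members far higher in T. It measured 0.597, 1.80 and 10.2 CPM in Co-L and 0.553, 0.728 and 2.28 CPM in Co-H, against 906, 1222 and 1152 CPM in T-L and 1232, 1438 and 1666 CPM in T-H. All 6 T libraries were above all 6 Co libraries.

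At the opposite end, ENSBTAG00000025775 measured 35.2, 11.6 and 738 CPM in Co-L and 118, 264 and 41.3 CPM in Co-H, against at most 0.208 CPM in any T library. It was present in every Co library and close to the floor in T. ENSBTAG00000014335 had 117 CPM in Co-L 3, 19.997 CPM in Co-H 2, 2.69 to 8.13 CPM in the other Co libraries, and a single count over the 6 T libraries.

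As a share of counts, the Co-L 3 set took 0.701% ± 0.0308 (SD, n = 3) in T-L and 1.27% ± 0.370 (SD, n = 3) in T-H. The 3 T-H libraries, at 1.58%, 0.861% and 1.38%, were all above the 3 T-L libraries, at 0.697%, 0.673% and 0.734%. That separation rests on 2 members, the most abundant in T, which held 38.0% of the set's counts over the T libraries and 67.2% in T-H 1. Without them the shares were 0.517%, 0.621% and 0.665% in T-H and 0.556%, 0.627% and 0.609% in T-L, and the groups overlapped.

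Those 2, named for their level in T, were ENSBTAG00000018531 and ENSBTAG00000047700. ENSBTAG00000018531 measured 728, 388 and 635 CPM in T-L and 6246, 1250 and 2831 CPM in T-H, and 147 CPM in Co-L 3 against 4.18 to 32.0 CPM in the other Co libraries. ENSBTAG00000047700 measured 679, 64.7 and 617 CPM in T-L and 4341, 1154 and 4358 CPM in T-H, and 114 CPM in Co-L 3 against 1.11 to 6.91 CPM in the other Co libraries. In both, T-L 2 was the lowest T library, T-H 2 the lowest T-H library, and the T groups did not overlap.

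A fit of all genes in edgeR gave the tests. It took 14839 genes past a filter on low counts, which 163 of the 212 members passed: 100 of 149 in the Co-L 3 set and all 49 and 14 of the others. The filter asks for counts in at least 3 libraries of any group, so members could pass through T, and 49 members were not tested. Those 49 were all highest in Co-L 3, with a T median of at most 0.483 CPM. The labels do not state whether replicate libraries stem from different animals, so p-values measure the spread between these samples, which may be technical.

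For T-H against T-L, whose values the rule used only to bound their spread, no member passed the test. Of all genes 0% were called by edgeR, with the smallest adjusted p at 0.356 over all genes and at 0.983 over the members. At an unadjusted p under 0.05 there were 6 members of 163 and 608 genes of 14839, and DESeq2 called 1 member and 27 genes. The T-H and T-L libraries did not overlap in 24 members, or 14.7%, against 9.42% of all genes. These were 22 of 100 in the Co-L 3 set and 2 of 49 in the Co-H 2 and Co-H 3 set. In the Co-L 3 set 7 were higher in T-H, against 2.82% of all genes, and 15 lower, against 6.6%.

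The member with the smallest p among those higher in T-H was ENSBTAG00000003898, with a T-H minus T-L difference of 6.59 ± 2.29 (log2, SE) and an adjusted p of 1 in edgeR. It had 0.0756, 0 and 0 CPM in T-L and 4.56, 5.57 and 0.0901 CPM in T-H. T-H 3 and T-L 1 held 1 count each, so that the difference came from T-H 1 and T-H 2.

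For Co-H against Co-L, the rule used the values compared, and nothing is read from the counts. edgeR called 38 of the 163 members, against 4.78% of all genes. The 33 higher in Co-H, against 2.46%, belonged to the Co-H 2 and Co-H 3 set. The 5 lower, against 2.32%, were 4 in the Co-L 3 set and 1 in Co-L 1. The libraries of Co-H and Co-L did not overlap in 18 members, 8 of them in the Co-H 2 and Co-H 3 set, against 24.1% of all genes.

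These calls changed when single libraries were left out, T libraries included, although T holds none of the values compared. The smallest adjusted p of a member in edgeR was 0.0463, close to the limit of 0.05. For ENSBTAG00000002321 the edgeR estimate was 4.82 (log2, adjusted p = 0.0463) with all libraries. Without T-L 1 it was 4.89 (adjusted p = 0.0712). Without Co-L 1, 95 members were called, 80 of them lower in the Co-L 3 set, and without Co-H 1, 55 were called, 48 of them higher in the Co-H 2 and Co-H 3 set. Without any one of the other 10 libraries edgeR called 0 members, and 71 to 152 had an unadjusted p under 0.05. With all libraries there were 144 at that level, and DESeq2 called 92, with 36 members given no adjusted p.

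ENSBTAG00000021276 was among the members lower in Co-H, at 0.119, 8.82 and 135 CPM in Co-L and 0.474, 0.224 and 1.18 CPM in Co-H. The Co-L libraries themselves spanned the whole Co-H range and beyond. Its T levels were 13.8, 12.3 and 10.9 CPM in T-L and 2.46, 5.88 and 7.48 CPM in T-H, and here the groups did not overlap.

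For T against Co, which again uses the Co values of the rule, edgeR called 72 of 163 members, against 64.4% of all genes. In the Co-L 3 set 37 were higher in T, against 31.7%, and 13 lower, against 32.7%, of 100 tested. The 49 members left untested were near 0 in T and the rule chose low values in most Co libraries, so the filter and the rule favour calls higher in T here. In the Co-H 2 and Co-H 3 set 0 were higher and 12 lower, of 49, although the T median was at least 1.5 times the Co median in 34. The contrast takes group means, which include the pair, and it uses TMM scaling, which that ratio of medians does not. Among the 14 others 3 were higher and 7 lower. Without Co-L 3, 68 members of its set were called higher in T, and without Co-H 1, 30 members of the Co-H 2 and Co-H 3 set were called lower.

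The difference between the fertility contrasts of T and Co was called for 0 members and 0% of all genes by edgeR, with a smallest adjusted p of 0.257. At an unadjusted p under 0.05 there were 108 members and 2423 genes. DESeq2 called 6 members and 135 genes, with 122 members given no adjusted p. Without Co-H 1 edgeR called 49 members, of which 48 were lower and belonged to the Co-H 2 and Co-H 3 set.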

How the data were processed

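Raw read counts per gene were deposited by the authors, 1 file for each of 12 libraries and 24616 cattle gene identifiers in each, per the file headers. Bowtie 0.12.2 is listed in the submitters' processing notes, which give the cattle build for 7 libraries and none for 5. The counting tool was, like the annotation and strand setting, not given in the sources used here, so near-identical and overlapping genes cannot be told apart. A blank line in 1 file was skipped, and the first count of T-H 3 was read from its header line.

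CPM was computed on the unadjusted library total. In R 4.3.3, edgeR 4.0.16 fitted all 12 libraries with 4 group means, TMM scaling and filterByExpr at a minimum count of 10, and the quasi-likelihood test gave p-values adjusted by Benjamini-Hochberg over 14839 genes and called under 0.05. Printed SEs are the log2 change over the square root of the F statistic. Correlations used log2 CPM with a prior count of 2. Wilson intervals had a level of 95%. Alternatives were RLE scaling, DESeq2 1.42.0, no filter, a replicate block, each tissue alone, each library left out and, added after seeing the data, robust spread and both Co-H 2 and Co-H 3 left out (members and correlations).

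On data simulated from these libraries, the edgeR test for Co-H against Co-L recovered 25.5% of genes changed 2-fold, 86.5% changed 4-fold and 93.5% changed 8-fold. Genes with low mean counts were not among those changed. Group differences in the data were first removed, and no single library was made to stand out. These rates therefore need not hold for the members. Named identifiers were the 2 with the largest ratio and the 2 with the highest CPM for each carrier library, 2 in each direction for each contrast (the smallest p where none was called), 2 on each side of the rule's limit and the most similar gene. Others are said to be named for their values. The members and the rule were chosen with earlier results of these data known. Planned marker and pathway lists were not run, since 0 identifiers matched a gene name, and no sequence is shown.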

Additional observations from a re-analysis of the deposited data

How the results depend on the processing

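The number of members moved most with Co-L 3: over the 6 fits without 1 Co library it ran from 63 (without Co-L 3) to 212. TMM or RLE scaling gave 232, with 197 of the 212 kept; 14 of the 15 lost were highest in Co-H 2 or Co-H 3. For Co-H against Co-L, 709 genes and 38 members became 2271 and 92 with DESeq2, 3 and 0 without the filter, 1 and 0 from the Co libraries alone, and 0 to 3110 genes and 0 to 95 members without 1 library. For T-H against T-L, 0 and 0 became 27 genes and 1 member with DESeq2 and 1 gene from the T libraries alone. The difference of the fertility contrasts, 0 and 0, became 135 genes and 6 members with DESeq2, and 0 to 1237 and 0 to 49 without 1 library. The cause was not tested. T against Co gave 66 to 99 members called in every setting. Whether replicate numbers pair the samples was not settled. The correlation of same-numbered deviations from group means ran from -0.287 to 0.249. For differently numbered ones it ran from -0.342 to 0.178. Between Co-L and T-L the same-numbered values were 0.0720, 0.0924 and 0.138, all above the differently numbered ones, at most 0.0498. Between Co-H and T-H they were 0.00484, -0.0853 and -0.0495, against up to 0.104. With the replicate block 0 genes and 0 members were called for Co-H against Co-L. The median r between one member of each set went from -0.278 to 0.0508 without Co-L 3. Depth limits the ratios of members whose other Co libraries hold a few counts.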

Other observations

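In 4 members, named after their values were seen, T-H 1 and T-H 2 stood at 1 CPM or more and at least 3 times each other T library. The pattern was found in 7 of the 10082 identifiers that reached 10 CPM in a Co library, and all 4 members were highest in Co-L 3. ENSBTAG00000039504 measured 0.896, 0.281 and 39.7 CPM in Co-L and at most 0.315 CPM in Co-H, and 8.66 and 8.05 CPM in T-H 1 and T-H 2 against at most 0.361 CPM in the other T libraries. ENSBTAG00000032236 measured 178 CPM in Co-L 3 and at most 0.0597 CPM in any other Co library, and 7.57 and 3.17 CPM in T-H 1 and T-H 2 against at most 0.151 CPM in the other T libraries. ENSBTAG00000025260 measured 18.2 CPM in Co-L 3 and 2.92 and 1.93 CPM in T-H 1 and T-H 2, with 0 counts in the other T libraries. ENSBTAG00000003898 was the fourth. Each was thus under 1 CPM in 9 of 12 libraries and above it in the same 3.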
